A study of Mus musculus with 6 samples.

Results

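Histone genes were examined as a source of piRNAs in cultured mouse spermatogonial stem cells. The members were the protein-coding genes of GENCODE M21 whose symbol starts with Hist1h, Hist2h, Hist3h or Hist4, 67 of 21951 protein-coding genes. They comprised 6 genes for the linker histone H1, 18 for H2A, 18 for H2B, 12 for H3 and 13 for H4, of which 54 lie on chromosome 13, 10 on chromosome 3, 2 on chromosome 11 and 1 on chromosome 6. A histone read was a read of 25 to 31 nt whose whole sequence matched the sense strand of a member transcript exactly, counted 1 time per family however many copies it matched. There were 6 libraries of small RNA, 1 per group. The cells came from a male of 15 days, an F1 of C57BL/6 and DBA2 (C57BL/6 in the strain label) with an actin-EGFP transgene, and were grown on mouse embryonic fibroblasts. The groups were wild type RNA without and with NaIO4 (periodate), mhen1-/- RNA (here Hen1 knockout) without and with NaIO4, untreated mili-/- RNA (Mili knockout), and RNA bound by an antibody to MILI. Both knockouts were made with Cas9 and guide RNAs, and single colonies were picked, so a knockout library may stand for 1 clone. With 1 library per group no test between conditions was possible: every ratio below compares 2 libraries, its 95% interval covers counting error only, and both knockouts and the immunoprecipitate share the untreated wild type library as their reference. In bulk RNA, fewer cells of a type and less RNA per cell cannot be told apart.

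Replication-dependent histone genes are short, mostly intronless and clustered, and their mRNAs end in a conserved stem-loop in place of a poly(A) tail. Their coding sequences are nearly identical between copies, and they are transcribed mainly in S phase. piRNAs are germ line small RNAs carried by PIWI proteins such as MILI; most begin with uridine, shown here as T. HEN1 places a methyl group on the 2′-O of their last nucleotide, and NaIO4 oxidises RNA ends that lack it, which keeps them out of the library, so that methylated RNAs gain share.

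The reads that led each family in the immunoprecipitate are printed below because they were the most abundant sequences of their family there; for H2B the second is added because it belongs to 1 gene. A first T is in capitals, and so is an A at the tenth base, the base linked to piRNA pairs that overlap by 10 nt. Positions count from the A of the start codon.
H2A, position 263: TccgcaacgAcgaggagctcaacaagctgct
H2B, position 166: Tcctccaaggccatgggcatcatgaact
H2B, position -13, Hist1h2bb alone: Tcttttgaacagaatgccagagccttc
H3, position 235: Ttcaagaccgacctgcgcttccagagc
H4, position 154: TacgaggagAcccgcggtgtgctgaag
H1, position 36, Hist1h1d alone: Tgcacctgtggagaagacacctgtgaag
The H3 sequence is in 9 of the 12 H3 genes and no other protein-coding gene, for example on the minus strand of Hist1h3a at chr13:23762093-23762119 (GRCm38). The H2A sequence is in 15 of 18 H2A genes and 3 genes outside the set, and in Hist1h2ab it lies at chr13:23751395-23751425, plus strand. The H2B sequence at position 166 is in 13 of 18 genes (Hist1h2bb, chr13:23746960-23746987, plus strand), and the H4 sequence is in 9 of 13 (Hist1h4a, chr13:23760978-23761004, minus strand). Those 4 lie inside the coding sequence. The Hist1h1d sequence is also coding (chr13:23555125-23555152, plus strand), while the sequence of Hist1h2bb alone crosses the start codon (chr13:23746782-23746808, plus strand).

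Histone reads numbered 22683 in untreated wild type, 53084 in periodate-treated wild type, 24328 in the untreated Hen1 knockout, 1752 in the periodate-treated Hen1 knockout, 453 in Mili knockout cells and 254298 in the immunoprecipitate. The libraries held 7322408, 10282416, 11702714, 2604390, 4808088 and 25240941 reads of 18 to 35 nt, in the same order. In rpm (reads per 1000000 of those reads), histone reads came to 3098, 5163, 2079, 673, 94.2 and 10075. The immunoprecipitate was highest and the Mili knockout lowest. Histone genes supplied 1.31% of all sense reads of 25 to 31 nt from protein-coding genes in untreated wild type, and 2.00% in the immunoprecipitate.

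The label of these reads as piRNAs was checked on size and first base. Reads of 18 to 40 nt in the sense of histone genes peaked at 27 nt in untreated wild type, where 78.0% were of 25 to 31 nt. Of the histone reads, 85.8% began with T in untreated wild type, 87.6% after periodate, 85.1% in the untreated Hen1 knockout and 92.1% in the immunoprecipitate. T makes up 13.4% of the coding bases of these genes. Other protein-coding genes gave 81.4% T in untreated wild type. The 453 reads left in the Mili knockout did not have these features: 17.9% began with T, and reads of 18 to 40 nt were most common at 18 nt, the shortest length counted. An A at the tenth base was present in 30.6% of histone reads in untreated wild type, against 29.9% for other protein-coding genes. Over the germ line list, 12 of 12 microRNAs were detected in each library, with 107771 rpm in untreated wild type, against 2901 rpm for the 6 fibroblast microRNAs.

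**Figure D1:**
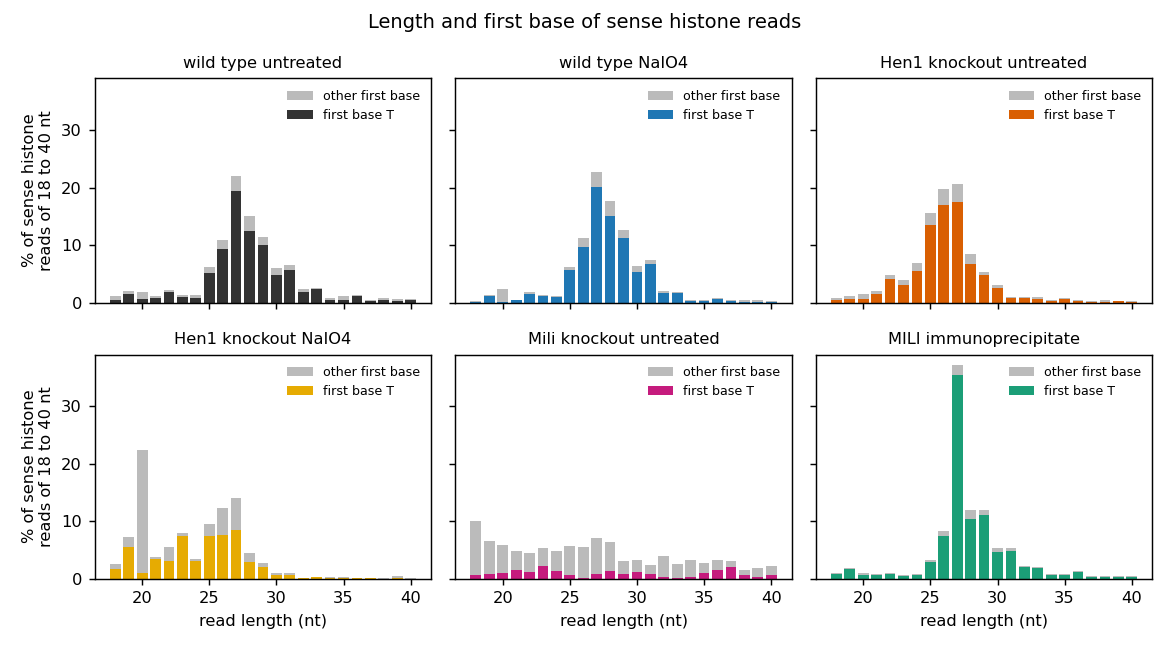
Share of sense histone reads of 18 to 40 nt at each length in nt, by library, with the part that begins with T in colour and the rest in grey. A peak at 27 nt with mostly T is seen in both wild type libraries and in the immunoprecipitate; in the Mili knockout reads are spread from 18 to 40 nt, and in the periodate-treated Hen1 knockout the bar at 20 nt holds 22.4% of reads.

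Histone reads came mainly from coding sequence, unlike those of other mRNAs. In untreated wild type 78.6% lay inside the coding sequence, 12.9% crossed the start codon and 6.11% lay in a 3′ UTR. For other protein-coding genes the coding share was 29.5% and the 3′ UTR share 63.2%. Coding bases make up 42.0% of the length of the longest annotated transcripts of the member genes, and 11 member genes are annotated without any UTR. That share varies between genes: 666 of 7425 nt are coding in Hist1h1d, and 381 of 508 nt in Hist1h2bb. The coding share of length was not taken for other mRNAs, so the part of transcript structure in this contrast was not tested. The 3′ UTR share was highest in the libraries with the fewest histone reads, at 32.1% in the periodate-treated Hen1 knockout and 79.2% in the Mili knockout, and lowest in the immunoprecipitate at 2.82%.

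H2B, which pairs with H2A in the nucleosome, led among the families in untreated wild type with 972 rpm. H3 followed with 735 rpm, H2A with 700 rpm (699.8), H1 with 416 rpm and H4 with 275 rpm. The counting intervals of neighbours in this order did not overlap except where H2A (681 to 719) and H3 (716 to 755) met at their ends. Set against length, as coding rpm per 1000 distinct coding 27-nt windows of the family, the order in untreated wild type became H3 499, H2B 282, H2A 277, H4 126 and H1 103. In the immunoprecipitate the same quantity was 3553 for H3, 658 for H2B, 502 for H2A, 342 for H4 and 192 for H1.

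**Figure D2:**
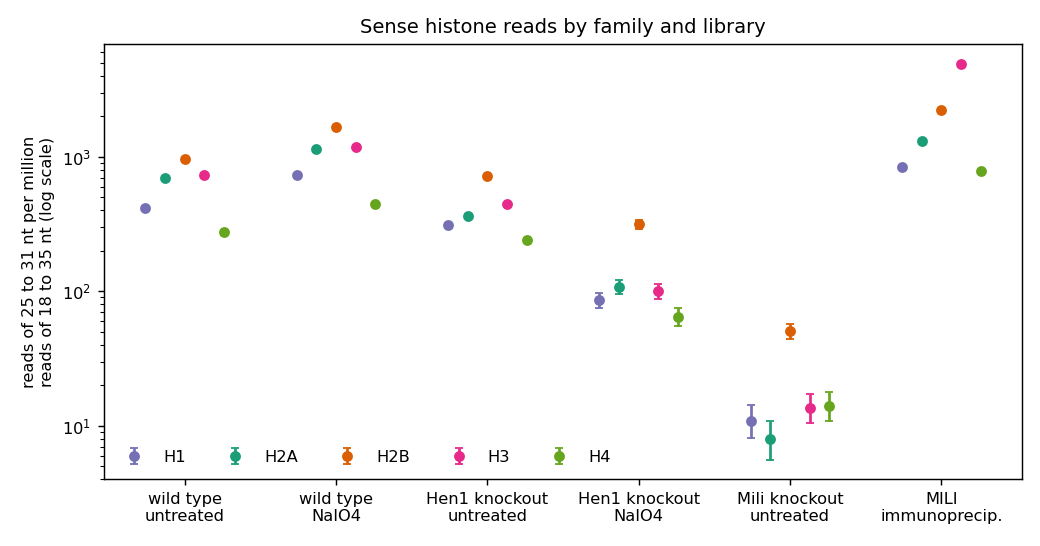
Histone reads of 25 to 31 nt in rpm, relative to reads of 18 to 35 nt (log axis), for the 5 families in the 6 libraries; points are the library values and bars their exact 95% intervals from read counts. H2B is highest in every library but the immunoprecipitate, where H3 reaches 4902 rpm, and each family is lowest in the Mili knockout.

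Reads gathered at a few 5′ ends, most of all in H3. In untreated wild type, 50% of the reads of a family were reached with 2 positions for H3, 5 for H2A, 7 each for H2B and H4, and 12 for H1. For H3, the core histone whose tail carries many regulatory marks, position 235 held 37.8% of reads in untreated wild type, position 359 held 14.4% and position 163 held 10.6%, so that 3 of 164 occupied positions had 62.8%. H2A had 24.9% at position 263, 16.2% at 172 and 4.80% at 71. H2B had 15.6% at position 166 and 15.4% at position 169. H4, the other core histone beside H3 in the tetramer, had 19.1% at position 154 and 8.99% at 188. H1 reads, from the linker histones that bind between nucleosomes, had 23.7% at position 36, all of it from Hist1h1d. With NaIO4 in wild type the same leading positions held 36.9% (H3), 28.2% (H2A), 14.1% (H2B, 166), 18.1% (H4) and 28.1% (H1).

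**Figure D3:**
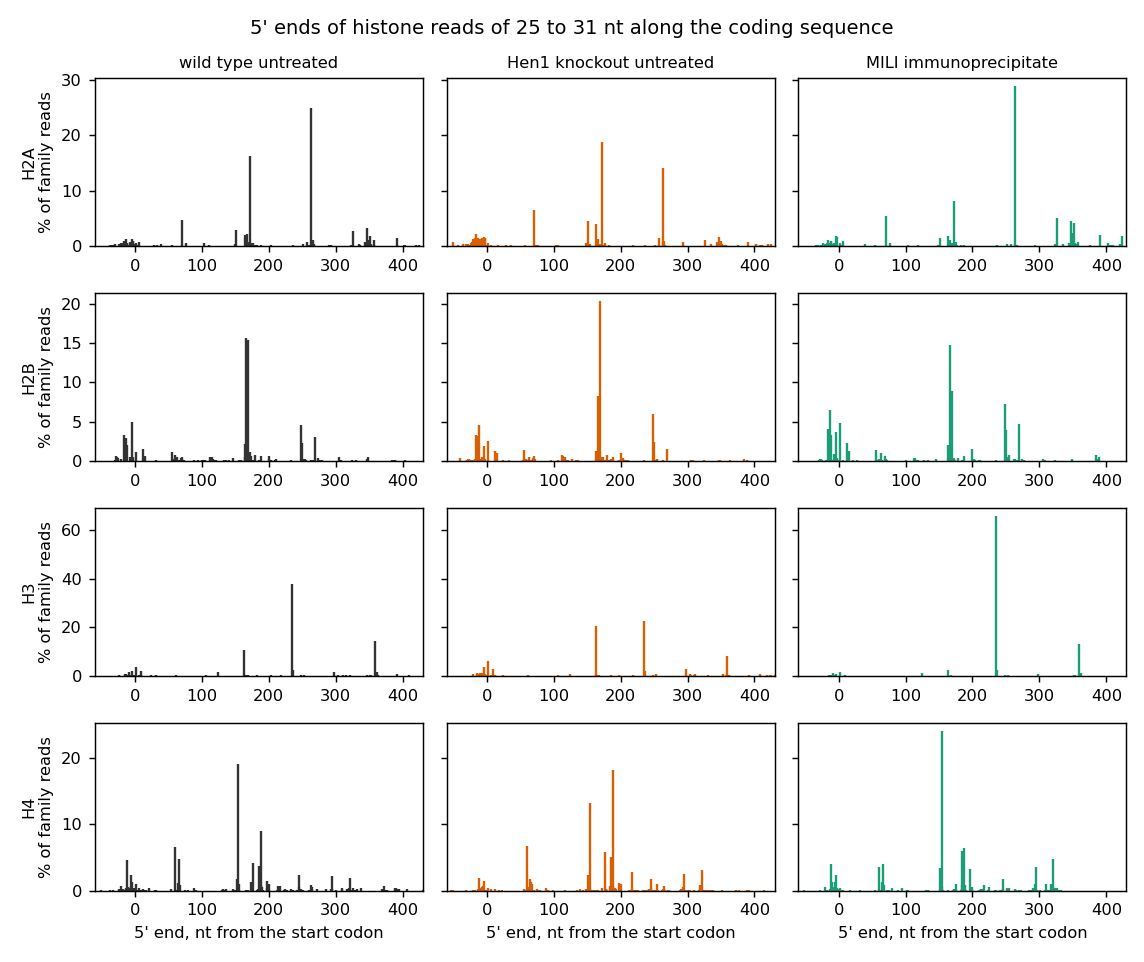
Share of family reads of 25 to 31 nt (percent) by 5′ end, in nt from the start codon, for H2A, H2B, H3 and H4 in 3 libraries. Most leading positions recur in the 3 libraries, and H3 position 235 holds 37.8% in untreated wild type and 65.8% in the immunoprecipitate. H3 position 163 holds 10.6% in untreated wild type and 20.7% in the Hen1 knockout. It is not among the leading 3 of the immunoprecipitate. In the Hen1 knockout position 172 leads H2A and 188 leads H4.

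Whether histone reads carry the protected end was read from NaIO4 in wild type. Histone reads went from 3098 to 5163 rpm, a ratio of 1.67 (1.64 to 1.69). The families lay close together: 1.76 for H1, 1.70 for H2B, 1.64 for H2A, 1.63 for H4 and 1.60 for H3. None of the 5 reached 2-fold, a size that 27.7% of 1361 other protein-coding genes reached; their median ratio was 1.86, and 19.7% of them lay below the ratio of all histone reads. As a share of sense mRNA reads, histone reads were thus not higher with NaIO4 (ratio 0.906). Counts of member genes use own reads, those that match 1 gene and no other protein-coding gene, as for the other genes. The floors differ, with at least 50 own reads for member genes and at least 200 reads for other genes. Of 25 member genes with at least 50 own reads in untreated wild type, 24 had a higher share with NaIO4, beside 98.5% of other genes. The exception was Hist4h4, the only member on chromosome 6. It had 117 own reads untreated and 114 after periodate, a ratio of 0.694 (0.536 to 0.898). With shared reads included it had 185 and 213, a ratio of 0.820 (0.673 to 0.998). Its annotated transcript reaches 2863 nt.

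In cells without HEN1 the direction was opposite. Histone reads had 2079 rpm untreated and 673 rpm with NaIO4, 3.09-fold lower (2.94 to 3.24). H3 was 4.45-fold lower, H4 3.72-fold, H1 3.66-fold, H2A 3.37-fold and H2B 2.28-fold. Thus 5 of 5 families were at least 2-fold lower, as were 96.8% of 2325 other genes, whose median was 3.58-fold lower. All 34 member genes with at least 50 own reads in the untreated knockout were lower, beside 99.7% of other genes. The ratio of the 2 NaIO4 ratios, Hen1 knockout over wild type, was 0.194 (0.185 to 0.204), 5.15-fold lower, and it ran from 0.141 for H3 to 0.257 for H2B. All 5 families passed 2-fold here too, beside 98.1% of 1346 genes.

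The weaker value of H2B came with reads that other genes share. One 27-nt sequence from the 3′ UTR of Hist1h2bh, also present in 20 genes outside the set, made up 21.8% of the H2B reads of the periodate-treated Hen1 knockout. It is shown because it went against the rest.
Hist1h2bh 3′ UTR: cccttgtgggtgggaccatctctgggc
It lies at chr13:23542491-23542517, minus strand, and begins with C. It had 52 reads in untreated wild type, 74 after periodate, 143 in untreated Hen1 knockout cells, 178 in that knockout after periodate, 65 in Mili knockout cells and 4 in the immunoprecipitate. Its share was 5.59 times as high with NaIO4 in the Hen1 knockout, and it was nearly absent from the MILI-bound RNA. Among 20-nt reads, below the size counted, 1 sequence that matches the Hist1h2ac 3′ UTR supplied 807 of 872 reads in that library. Its matches to genes outside the set were not counted, so its source may not be Hist1h2ac. Reads inside coding sequence were 0.222 times as frequent with NaIO4 in the Hen1 knockout (863 against 17474 reads), while those in 3′ UTRs had a ratio of 1.26. With only the reads that match no gene outside the set, the ratio in 3′ UTRs was 0.222 (0.149 to 0.332) and that of all histone reads 0.244.

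**Figure D4:**
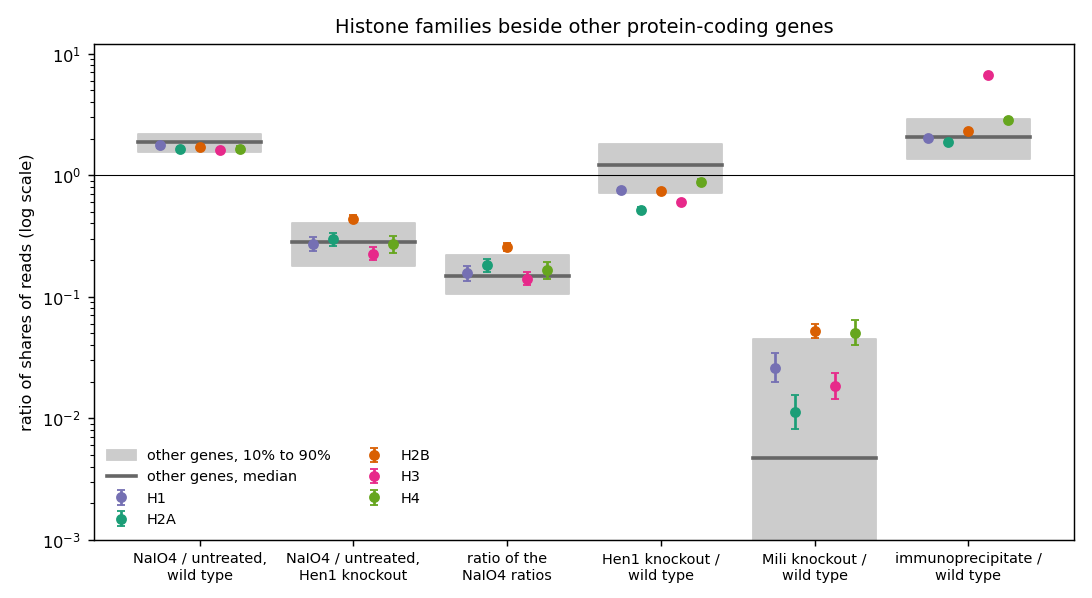
Ratio of shares of reads (log axis) for the 5 families in 6 comparisons, with 95% counting intervals, beside the median (dark line) and the 10% to 90% range (grey) of other protein-coding genes; the range of the Mili knockout reaches 0 and is drawn to the bottom of the axis. H3 stands above other genes in the immunoprecipitate (6.67 against a median of 2.08), and all 5 families lie below the median in the Hen1 knockout.

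Without NaIO4, the library without HEN1 held a lower share of histone reads, and shorter ones. Their share was 0.671 times that of wild type (0.659 to 0.683), against a median of 1.20 for other genes, of which 8.60% lay lower. H2A had 0.521, H3 0.604, H2B 0.736, H1 0.753 and H4 0.878. The low H2A value rests largely on reads that also match genes outside the set. Of 4235 H2A coding reads in untreated wild type, 1382 matched no such gene. The ratio was 0.449 for all H2A coding reads and 0.704 (0.654 to 0.756) for those matching member genes only. For H3 coding reads it was 0.563 on both counts. Of 25 member genes with at least 50 own reads in wild type, 18 were lower, beside 31.7% of other genes. Among them 5 of 5 H4 genes and 4 of 4 H1 genes were lower, but 1 of 5 H3 genes: Hist1h3c had 0.436, while Hist1h3a had 1.80 and the other 3 lay from 1.02 (Hist1h3d) to 1.07 (Hist1h3g). The family value of 0.604 includes the reads shared between H3 copies. No family reached a 2-fold change, which 2.13% of 1361 genes did downwards and 6.1% upwards. Per microRNA read the ratio turned to 1.75, since microRNA reads numbered 1403669 in untreated wild type and 858342 in the larger Hen1 knockout library. Cytosolic ribosomal protein genes, another set of highly expressed short mRNAs, had a median ratio of 1.01 over 60 genes. Germ line microRNAs had 39481 rpm in the untreated Hen1 knockout against 107771 rpm in untreated wild type. Fibroblast ones had 2859 against 2901 rpm, and the part of these differences in the result was not tested.

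The lower share was found at most of the leading 5′ ends, given here as a description. At H1 position 36, reads of 25 to 31 nt went from 98.7 to 22.7 rpm. H2A position 263 went from 174 to 51.5 rpm, H3 position 235 from 278 to 101 rpm, H3 position 359 from 106 to 36.8 rpm, and H2B position 166 from 152 to 58.8 rpm. Other ends differed less: H2B position 169 had 150 rpm in wild type (149.8) and 145 rpm in the knockout, and H2B position 249 had 44.9 and 43.2 rpm. H4 position 188 was higher, at 43.8 rpm without HEN1 against 24.7 rpm in untreated wild type. Also higher per read of the library were H3 position 163 and H1 position -16. Position 163 of H3 had 573 wild type reads and 1075 Hen1 knockout reads. For H1 position -16 the counts were 106 and 375, in the same order.

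Histone reads were shorter in the Hen1 knockout. Within 25 to 31 nt their mean was 27.76 nt in untreated wild type, 27.80 nt with NaIO4 and 26.76 nt in the knockout, and reads of other protein-coding genes went from 28.01 to 27.07 nt. Of sense reads of 18 to 40 nt, 8.02% were of 20 to 24 nt in untreated wild type and 19.2% in the knockout, and 77.6% of the latter began with T. Reads that shared a 5′ end were compared at 87 ends with at least 20 reads of 20 to 35 nt in both libraries. The mean length was shorter in the knockout at 84 of them, with a median difference of -1.25 nt. Between untreated and NaIO4-treated wild type, 50 of 110 ends were shorter in the treated library and the median difference was 0.017 nt.

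The commonest form at 4 of the 5 leading ends was shorter at its 3′ side in the Hen1 knockout. The most abundant wild type form is printed with the bases absent from the most abundant knockout form in capitals.
H1, position 36: tgcacctgtggagaagacacctgtGAAG
H2A, position 263: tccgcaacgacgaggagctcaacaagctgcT
H2B, position 166: tcctccaaggccatgggcatcatgaacT
H4, position 154: tacgaggagacccgcggtgtgctgaAG
At the H2A end, 83.8% of reads of 20 to 35 nt were 31 nt long in untreated wild type, and 51.5% were 30 nt long in the Hen1 knockout. The 31-nt form had 1071 reads in wild type and 43 in the knockout, while the 30-nt form had 105 and 161. The 24-nt form of the Hist1h1d read had 17 reads in wild type and 93 in the knockout, 3.42 times the share (2.04 to 5.74). At that end 5.39% of wild type reads and 47.6% of knockout reads were of 20 to 24 nt, and 20.1% in the immunoprecipitate. At the H4 end the leading length was 27 nt in wild type (24.8%) and 25 nt in the knockout (47.9%). H3 position 235 kept 27 nt as its leading length, at 78.9% and 60.1%, and reads of 25 nt there reached 18.5% in the knockout.

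**Figure D5:**
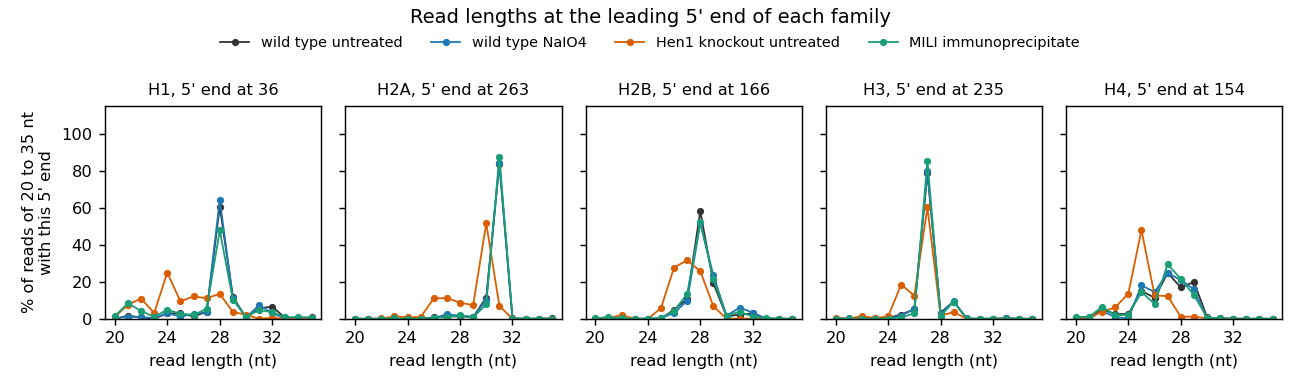
Length in nt of reads of 20 to 35 nt at the leading 5′ end of each family, as percent of the reads with that end, in 4 libraries. Untreated and periodate-treated wild type run together, and so does the immunoprecipitate except at the H1 end. There 20.1% of its reads are of 20 to 24 nt, against 5.39% in untreated wild type. The Hen1 knockout is shifted to shorter lengths, from 31 to 30 nt for H2A and from 27 to 25 nt for H4.

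Bases added to the 3′ end were more frequent without HEN1. A tail was defined as 1 to 3 final bases that the member transcript does not hold, read on sequences that share their first 20 bases with a histone read. Tailed reads made up 10.7% in untreated wild type (10.2% to 11.2%, exact interval), 7.61% after periodate, 20.5% in the untreated Hen1 knockout (19.9% to 21.1%), 17.3% in that knockout after periodate, 16.2% in Mili knockout cells and 7.95% in the immunoprecipitate. T alone made up 74.3% of tails in untreated wild type and 59.5% in the Hen1 knockout, and A alone 13.6% and 23.9%. The share was higher in the knockout in each family: 22.4% against 10.4% for H1, 21.02% against 10.8% for H2A, 16.2% against 8.39% for H2B, 18.9% against 14.4% for H3 and 23.2% against 11.5% for H4. Of 45629 first 20-mers, 5459 also occur in transcripts outside the set, where a tail could be that transcript's own sequence. The tail shares rest on 13069 reads in untreated wild type, 979 of them for H2A and 1944 for H3. Reads of 20 to 35 nt numbered 1280 at H2A position 263 and 2058 at H3 position 235 alone. The tail shares of H2A and H3 therefore leave out reads of their leading ends and do not describe these families as a whole.

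Few histone reads were found without MILI. They had 3098 rpm in untreated wild type and 94.2 rpm in the Mili knockout, 32.9-fold lower (29.96 to 36.1). H2A was 88.5-fold lower, H3 54.4-fold, H1 38.5-fold, H4 19.7-fold and H2B 19.2-fold, so that 5 of 5 families passed 2-fold, as did 97.9% of 1361 other genes. Those genes had a median of 212-fold lower, and ribosomal protein genes 27.5-fold. All 25 member genes with at least 50 own reads in wild type were lower, beside 98.6% of other genes. Inside coding sequence 63 reads were left of 17833, 186-fold lower (145 to 238), and reads across the start codon were 113-fold lower. In 3′ UTRs 359 reads were left, 2.54-fold lower than the 1386 of wild type. The leading H3 sequence had 1595 reads in untreated wild type and 0 in the Mili knockout, at least 349-fold lower with 3 counts as the floor, and the leading H2A sequence went from 1071 to 0, at least 234-fold lower. Fibroblast microRNAs had 8574 rpm in this library against 2901 rpm in untreated wild type, and germ line ones 198732 against 107771 rpm; their part in the result was not tested.

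Most reads that remained in the Mili knockout lay past the histone stem-loop or over it. The letters of the conserved histone stem-loop (its loop and 3′ arm, sense strand only) are held by 42 member genes. Among genes with at least 60 nt of 3′ UTR, 40 of 48 member genes hold it within 100 nt of the stop codon, against 0.116% of 20629 other genes. Reads past the stem-loop, beyond the known end of the mature mRNA, made up 4.82% of histone reads in untreated wild type, 0.895% in the immunoprecipitate and 59.6% in the Mili knockout, where 97 of 270 matched no gene outside the set. Reads over the stem-loop made up 0.741%, 0.882% and 13.9%. Reads of 18 to 40 nt that end within 5 nt after the motif end near where histone mRNAs are known to end, and 1 is printed with the motif in capitals as an example.
Hist1h4d 3′ end: caaaaaccaaaggccctTTTCAGGGCCact
It lies at chr13:23581939-23581968, plus strand. Such 3′-terminal reads had 47.0 rpm in untreated wild type (344 reads), 50.96 rpm in the Mili knockout (245 reads) and 44.97 rpm in the immunoprecipitate, ratios of 1.08 (0.921 to 1.28) and 0.957 (0.848 to 1.08) to wild type. NaIO4 went with lower levels in both genotypes, 5.06 rpm in wild type and 5.38 rpm in the Hen1 knockout from 33.1 rpm, ratios of 0.108 (0.0804 to 0.144) and 0.163 (0.0954 to 0.277). The ratio of these ratios was 1.51 (0.822 to 2.77), where histone reads as a whole had 0.194. Their commonest length was 35 nt in untreated wild type and in the immunoprecipitate. Of these reads 37.5% began with T in untreated wild type, 32.7% without MILI and 59.2% in the untreated Hen1 knockout. The share was 83.2% in the immunoprecipitate and 75.0% of 52 reads in periodate-treated wild type.

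RNA bound to MILI held more histone reads, and H3 reads above all. Histone reads had 10075 rpm in the immunoprecipitate against 3098 rpm in untreated wild type, a ratio of 3.25 (3.21 to 3.30). H3 had 6.67, H4 2.84, H2B 2.29, H1 2.04 and H2A 1.88, so that 4 of 5 families passed 2-fold, as did 57% of other genes. The median of other genes was 2.08, and each of the 1361 had a lower ratio than H3. Of 25 member genes with at least 50 own reads in wild type, 24 were higher, beside 95.7% of other genes, and 20 passed 2-fold; Hist1h2ba had 0.997. The 5 H3 genes among them had 2.82 (Hist1h3d) to 3.93 (Hist1h3c), below the ratio of the family.

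A single 5′ end made up most of the H3 reads bound to MILI. Position 235 had 278 rpm in untreated wild type and 3225 rpm in the immunoprecipitate, 11.6 times as high (11.1 to 12.1), and held 65.8% of H3 reads there. The 27-nt sequence printed above had 1595 reads in untreated wild type, 3523 after periodate, 717 in untreated Hen1 knockout cells, 45 after periodate in that knockout, 0 in Mili knockout cells and 69249 in the immunoprecipitate. Without position 235 the H3 ratio was 3.67 and that of all histone reads 2.43. H3 position 359 had a ratio of 6.14 (5.71 to 6.60), while position 163 held 10.6% of wild type H3 reads and was not among the leading 3 positions of the immunoprecipitate. Ends within a family differed elsewhere too: H2A position 172 had 0.940 and H2A position 263 had 2.18, H2B position 169 had 1.33 and H2B position 249 had 3.60, and Hist1h1d position 36 had 1.17.

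Which copy a read came from was open for most reads, since 47.4% of histone reads in untreated wild type matched 6 or more member genes, 38.9% matched 1, and 17.3% also matched a gene outside the set. Own reads reached at least 50 in the immunoprecipitate for 54 of 67 genes. Among H2B genes, Hist1h2bb had 848 own reads in untreated wild type, 2215 after periodate, 1318 in the untreated Hen1 knockout, 73 after periodate in that knockout, 2 in Mili knockout cells and 11301 in the immunoprecipitate. Hist1h2bg had 594, 1153, 345, 18, 14 and 4517 in the same order, and Hist1h2bn 30, 84, 108, 5, 0 and 1553. Relative to untreated wild type, Hist1h2bg own reads were thus low in the Hen1 knockout (29.5 against 81.1 rpm), and those of Hist1h2bb were not (113 against 116 rpm). Hist2h2bb, on chromosome 3, could be read almost alone, with 97.5% own reads in the immunoprecipitate, 453 own reads in untreated wild type, 828 in the untreated Hen1 knockout and 3467 in the immunoprecipitate.

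H3 genes are so alike that own reads were few. Hist1h3c had 142 own reads in untreated wild type and 1926 in the immunoprecipitate, Hist1h3b 101 and 1330, and Hist1h3d 140 and 1361. The 3 H3 genes on chromosome 3 lack the leading sequence. Hist2h3b reads, shared copies included, numbered 926 in untreated wild type and 5242 in the immunoprecipitate, where Hist1h3c had 4327 and 114370. Over the 12 H3 genes, shared copies included, the ratio to wild type ran from 1.64 to 7.84, and it passed 2-fold in 9. These 9 are the genes that hold the leading sequence, so the same reads count in each of them. Of other protein-coding genes, on reads that match 1 gene, 57% passed 2-fold. For H4, Hist1h4a had 242 own reads in untreated wild type and 3188 in the immunoprecipitate, Hist1h4j 133 and 1169, and Hist1h4n 2 and 9. Among H2A genes, Hist1h2ab had 137 and 1643 own reads, Hist1h2ap 37 and 370, and Hist1h2ao 0 and 0, which leaves all of its reads shared with other copies.

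H1 genes have diverged enough to be told apart. Hist1h1a had 1050 own reads in untreated wild type, 2601 after periodate, 1251 in untreated Hen1 knockout cells, 82 after periodate in that knockout, 1 in Mili knockout cells and 9562 in the immunoprecipitate. Hist1h1d had 1362, 3623, 1374, 84, 10 and 7475 in the same order, and Hist1h1b 241, 546, 309, 22, 0 and 1992. In rpm, Hist1h1a was highest in the immunoprecipitate (379 rpm, against 143 in untreated wild type), and Hist1h1d in periodate-treated wild type (352 rpm, against 296 in the immunoprecipitate and 186 in untreated wild type). All 3 had 10 own reads or fewer in the Mili knockout. Hist1h1c differed, with 26 own reads in the Mili knockout (5.41 rpm) and 47 in untreated wild type (6.42 rpm).

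The testis variants gave reads too. Hist1h1t, the linker histone of meiotic spermatocytes, had 17 reads in untreated wild type and 185 in the immunoprecipitate, all its own. Hist1h2aa had 82 and 668 own reads, and Hist1h2ba 135 and 464. Both lie beside each other on chromosome 13.

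Histone genes outside the set, which are replication-independent and mostly carry poly(A) tails, were also sources of reads. The total of the members covers 67 genes and includes reads shared between copies, so it is not comparable with the values here. Over 12 such genes, reads matching 1 gene came to 193 rpm in untreated wild type and 655 rpm in the immunoprecipitate. H3f3a, which encodes the variant H3.3, led with 844 reads in untreated wild type and 11884 in the immunoprecipitate. With NaIO4 in wild type, 10 of 10 genes with at least 20 reads were higher, with a median ratio of 1.78, and in the Hen1 knockout 9 of 9 were lower, with a median of 0.281. Genes for histone mRNA transcription and 3′-end processing, of which 13 of 15 listed were matched, gave similar counts. With NaIO4, 11 of 11 were higher in wild type (median 1.89) and 13 of 13 lower in the Hen1 knockout (median 0.266). Among other protein-coding genes with at least 200 reads, 98.5% were higher in wild type, with a median of 1.86. In the Hen1 knockout 99.7% were lower, with a median of 0.280, so both lists lay near these shares.

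Reads antisense to histone genes were rare, and nearly none came from coding sequence. Untreated wild type had 1110, or 4.89 per 100 sense reads, and the immunoprecipitate 4191, or 1.65 per 100. Of those in wild type, 98.7% lay outside coding sequence. Hist4h4 had 521, Hist1h4i 388 and Hist1h2bh 140. A single 25-nt sequence antisense to Hist1h4i had 281 reads in untreated wild type. It also occurs in the sense of 154 annotated genes, so its source may not be the Hist1h4i locus. The leading antisense sequence in the immunoprecipitate is printed with the marks used above.
Antisense to the Hist4h4 3′ UTR: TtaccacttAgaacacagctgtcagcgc
It lies at chr6:136802371-136802398, plus strand, and also occurs in the sense of 13 annotated genes, so its source may not be the Hist4h4 locus. It had 93 reads in untreated wild type, 103 after periodate, 142 in untreated Hen1 knockout cells, 12 after periodate in that knockout, 0 in Mili knockout cells and 451 in the immunoprecipitate. Antisense reads began with T in 89.8% and had an A at the tenth base in 72.4% in untreated wild type. The Hist4h4 and Hist1h4i sequences described here both hold that A, so this share rests in part on reads that other genes also hold. Among sense and antisense pairs that overlap by 1 to 20 nt at their 5′ ends, an overlap of 10 nt held 12.2% in untreated wild type, the third of 20 overlaps, and 16.8% in the untreated Hen1 knockout, the first. The base after the 3′ end of a read was T for 25.6% of reads in untreated wild type, and a read began at the very next base in 4.99% of pairs within 20 nt, rank 10 of 20 distances.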

How the data were processed

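The members and the gene lists were chosen with earlier results of these data known. Each deposited file lists distinct sequences with counts of reads, which the authors had made by collapsing identical reads, with no scaling (whole numbers, unequal totals). Per the submitters' processing notes, Bowtie (no version) and mm10 were used; how adapters and lengths were treated is not given in the sources used here. The labels mention spike-ins for 5 libraries, which were not identified, so amounts are relative.

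Sequences were matched exactly to GENCODE M21 (GRCm38) transcripts; no genome was matched, so reads from unannotated copies were not told apart. Counts were divided by the reads of 18 to 35 nt of the library. Ratio intervals are on the log scale, and intervals of shares are exact (Clopper-Pearson), both at 95%; PCR copies are not independent molecules, so both cover counting error only. The background was other protein-coding genes with at least 200 reads matching 1 gene in the untreated reference library. Genes named were the 3 per family with most reads in the immunoprecipitate and others with at least 50 own reads there. Ratios were tested on simulated counts. Tools were numba 0.67.0, pandas 2.3.3, numpy 2.4.6, matplotlib 3.10.9 and scipy 1.17.1 under Python 3.11.15.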

Additional observations from a re-analysis of the deposited data

Results flagged for a closer look

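Per read of the library, NaIO4 went with opposite directions in the 2 genotypes: all 5 families were higher in the wild type library and lower in the Hen1 knockout library. Of other protein-coding genes, 98.5% were higher in the first and 99.7% lower in the second. The ratio of the NaIO4 ratios, Hen1 knockout over wild type, was 0.194 for all histone reads, 0.155 for H1, 0.181 for H2A, 0.257 for H2B, 0.141 for H3 and 0.165 for H4, and 98.1% of other genes were at least 2-fold lower in it. As a share of sense mRNA reads histone reads were lower with NaIO4 in wild type too (0.906, and below 1 in all 5 families), so the opposite directions do not hold on that scale. With 1 library per group the difference was not tested.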

How the results depend on the processing

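Values are ratios for all histone reads in the order periodate in wild type, periodate in Hen1 knockout cells, the second over the first, Hen1 knockout, Mili knockout and immunoprecipitate over untreated wild type (1.67, 0.324, 0.194, 0.671, 0.0304 and 3.25 as reported). Per microRNA read they were 21.7, 0.924, 0.0426, 1.75, 0.0172 and 73.6. Per read of the Mir5099 locus they were 1.45, 0.0831, 0.0573, 0.604, 0.0164 and 3229, the last because that locus had 1951 reads in the immunoprecipitate. With the 10 top sequences of each library left out they were 1.61, 0.489, 0.304, 0.649, 0.0357 and 2.10. With distinct sequences counted 1 time they were 0.888, 1.00, 1.13, 0.526, 0.204 and 0.582, so that the first 3 and the last turned in direction past 1, the second only just. With up to 1 mismatch they were 1.63, 0.353, 0.216, 0.772, 0.0362 and 3.08. With 24 to 32 nt the knockouts had 0.709 (Hen1) and 0.0367 (Mili). Without reads that match a gene outside the set, the last 5 were 0.244, 0.147, 0.709, 0.0221 and 3.61.

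The other alternatives were chosen after seeing the data. With 20 to 31 nt the ratios were 1.64, 0.503, 0.307, 0.767, 0.0483 and 3.11. Without the leading H3 5′ end the last 3 were 0.701, 0.0334 and 2.43. As a share of sense mRNA reads they were 0.906, 0.695, 0.767, 0.552, 0.329 and 1.53. By family, with distinct sequences counted 1 time, ratios turned for NaIO4 in wild type in all 5 families (0.813 for H1 to 0.924 for H3), for NaIO4 in the Hen1 knockout (H2A 1.057, H2B 1.09), for the ratio of ratios (H1 1.22, H2A 1.16, H2B 1.21) and for the immunoprecipitate in all 5 (H1 0.585, H2A 0.560, H2B 0.546, H3 0.603, H4 0.665). As a share of protein-coding sense reads, NaIO4 in wild type turned in all 5 families (0.869 for H3 to 0.955 for H1), H1 and H2A in the immunoprecipitate had 0.956 and 0.883, and H2B had a ratio of ratios of 1.02. Per microRNA read, the Hen1 knockout turned in all 5 families (1.36 for H2A to 2.30 for H4), and NaIO4 in that knockout for H2B (1.25). H4 in the Hen1 knockout had 1.02 with up to 1 mismatch, and H2A with NaIO4 in that knockout had 1.11 at 20 to 31 nt, where 807 of 872 reads of 20 nt were 1 sequence. Where no cause is named, the cause was not tested. The Mili knockout ratio stayed below 1 in the 10 alternatives for all histone reads and in the 50 for families. No paired analysis was possible because each group had 1 library. The Hen1 knockout library with NaIO4 (1752 histone reads) and the Mili knockout library (453) limit the precision of single ends and genes.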
